A study of Homo sapiens and Mus musculus with 18 samples.

Results

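Baseline expression was compared between L3.6 cells with intact keratin 17 (K17, gene KRT17) and PANC-1 cells carrying an empty vector, 6 of the 18 libraries of a study on K17 in pancreatic cancer. L3.6 is a human line labelled as pancreatic adenosquamous carcinoma, a tumour with both glandular and squamous parts, and its 3 libraries here are labelled K17 wild-type. PANC-1 is a human line labelled as pancreatic ductal adenocarcinoma, the common glandular tumour of the pancreas, and its 3 libraries come from cells with the vector alone. Both lines were grown in the same medium with serum, per the labels. The sources used here do not name the vector or its promoter and do not say whether either group is 1 clone. They also leave unsaid whether replicates were grown separately, and a p-value here reflects library-to-library spread, which may be technical. Cell line, vector, culture and library batch cannot be told apart in this comparison. A further 6 human libraries of the same lines, 3 of L3.6 with KRT17 knocked out by CRISPR-Cas9 and 3 of PANC-1 over-expressing K17, were used to see whether a difference recurs in other libraries. Replicates 1 and 3 of PANC-1 empty vector entered the fit with the 3 L3.6 libraries, and replicate 2, which stands apart, is printed beside them.

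Carcinoma lines of the pancreas range from epithelial cells, held together by tight junctions and desmosomes, to cells with mesenchymal traits such as matrix secretion and a loss of junctions. The transcription factors ZEB1, ZEB2 and SNAI1 bind a DNA motif called the E-box in promoters of epithelial genes and repress them, while GRHL, OVOL, ELF and ESRP proteins maintain the epithelial state. Squamous epithelium, found in skin and in adenosquamous tumours, is specified by the transcription factor TP63 and makes the stratified keratins, among them K17. Tumours of the pancreas are also sorted into a classical type with gland-like gene expression and a basal-like type with squamous and stratified-epithelial genes.

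The 3 L3.6 libraries held between 9485257 and 15476629 counts and the 3 PANC-1 libraries between 63280851 and 70789559, so low levels were measured more precisely in PANC-1. Levels are given as CPM, the usual depth-scaled unit, with library totals adjusted by TMM, a method that assumes most genes to be equal. Correlations of log CPM were at least 0.985 between L3.6 libraries and 0.9965 between PANC-1 replicates 1 and 3. They were 0.9402 and 0.9368 between those and replicate 2, in which mitochondrial DNA genes took 18.8% of counts against 8.09% to 9.99% in the other 5 libraries. A single row, AC010970.1, took 6.05% to 14.1% of the counts in L3.6 and 0.201% to 0.513% in PANC-1.

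Some rows of the files may lack reads of the gene they name, which limits any comparison of the lines. Among 169 tested ribosomal, proteasome and housekeeping genes, 34.3% differed at least 2-fold between the lines, 11.2% at least 4-fold and 2.96% at least 16-fold, against 52.1%, 24.8% and 8.33% of all tested genes. EEF2, the translation elongation factor needed by every cell, was at 3.00, 2.84 and 3.00 CPM in L3.6 and at 222, 461 and 219 CPM in PANC-1 replicates 1, 2 and 3. The chaperone HSPA8 was at 91.0, 82.1 and 64.5 CPM against 2986, 5636 and 2958 CPM, and the ribosomal protein RPS16 at 30.0, 29 and 24.3 CPM against 840, 2009 and 847 CPM. CANX, a chaperone of the endoplasmic reticulum, was at 1.12 CPM in PANC-1 replicate 2 beside 360 and 391 CPM in replicates 1 and 3. TUBB, a tubulin, had 0 counts in all 3 PANC-1 libraries. Differences of this size therefore occur in genes that both lines must use, and the share of reads each row holds was not tested. A gene is marked below as an uncertain row where L3.6 libraries differ at least 4-fold at 5 CPM or more. In PANC-1 the same limits apply to replicate 2 against the mean of replicates 1 and 3, which were not compared with each other. A gene is also marked where a row named as its pseudogene holds at least 5% of its CPM, or where it lies in the MHC region of chromosome 6.

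A gene was called where the adjusted p of edgeR's quasi-likelihood test was under 0.05, the fold change at least 2 and the 3 L3.6 and 3 PANC-1 values did not overlap. Of 15295 tested genes 6819 were called (44.6%), of which 3391 (22.2% of those tested) were higher in L3.6 and 3428 (22.4%) higher in PANC-1. Each list count below stands beside these shares. The values of 9711 genes (63.5%) did not overlap, and 1231 genes (8.05%) were called with at least a 16-fold difference. With libraries scaled to their plain totals the median log2 fold change (L3.6 minus PANC-1) of all genes moved from -0.06 to 0.39, and 4716 genes were then called higher in L3.6 and 2274 higher in PANC-1. L3.6-higher genes thus made up 67.5% of calls with plain totals and 49.7% with TMM. Uncertain rows made up 361 of the calls.

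The same lines differed much alike in the other 6 libraries, L3.6 knockout against PANC-1 K17, which share no library with the first comparison. There 7519 of 15929 tested genes were called (47.2%), 22.2% higher in L3.6 and 25% higher in PANC-1. Of 6580 first calls that were tested there, 5459 were called in the same direction, 1113 were not called and 8 were called in the opposite direction. The log2 fold changes of the 2 comparisons had a Pearson r of 0.934 across 14959 genes, a description across genes, which are not independent replicates. Row effects that go with a line would recur in both sets.

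KRT17 itself (ENSG00000128422.15, GRCh38 chr17:41619441-41624842), a keratin of stratified and basal epithelium, was read almost only in L3.6. It was at 97.4, 98.8 and 96.8 CPM in L3.6 and at 0.0331, 0 and 0 CPM in PANC-1. The PANC-1 libraries held 2 counts in all against 4186 in L3.6, a ratio of levels of 8529 (95% exact counting interval 2360 to 70451, which covers counting error only). The 2 groups did not overlap. Its row is uncertain because pseudogene rows exceed 5% of its CPM in PANC-1. In the other libraries, where K17 was altered, KRT17 was at 12.2 to 14.0 CPM in L3.6 knockout and at 157 to 188 CPM in PANC-1 K17.

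The unmarked protein-coding genes with the highest fold changes toward L3.6 were a mixed set of secreted, metabolic and signalling genes. MUC2 (ENSG00000198788.8, chr11:1074875-1110511), the gel-forming mucin of intestinal goblet cells, was at 656, 575 and 529 CPM in L3.6 and at 0, 0.0335 and 0 CPM in PANC-1, with 25379 against 2 counts. The ratio of its levels was 51711 (counting interval 14314 to 427016). ALDH3A1, an aldehyde dehydrogenase of stratified epithelia, was at 209, 170 and 157 CPM in L3.6 and had 0 counts in PANC-1. Taking 3 counts over all PANC-1 libraries as the floor, it was at least 10548-fold higher in L3.6. LAD1, ladinin, a protein of the basement membrane zone, was at 62.6, 51.3 and 47.0 CPM against 0, 0.0837 and 0 CPM. EYA4, a transcriptional coactivator with phosphatase activity, was at 51.7, 27.5 and 30.8 CPM in L3.6. The actin-bundling protein LCP1 was there at 42.4, 33.8 and 32.2 CPM and the MAP kinase phosphatase DUSP4 at 30.6, 33.4 and 39.6 CPM. MCTP2 was at 40.5, 33.3 and 32.2 CPM, and these last 4 genes had 0 counts in PANC-1. In none of the genes of this paragraph did a PANC-1 library come near an L3.6 library.

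The genes with the largest fold changes toward PANC-1 were likewise of mixed function. COL11A1 (ENSG00000060718.21, chr1:102876467-103108872), a fibrillar collagen chain, was at 168, 142 and 172 CPM in PANC-1 and had 0 counts in L3.6, which is at least 2295-fold higher in PANC-1. The secreted Wnt antagonist SFRP1 was at 111, 59.8 and 104 CPM and the RNA-binding protein RBM24 at 114, 51.6 and 108 CPM in PANC-1, both with 0 counts in L3.6. TGFBI, a matrix protein induced by TGF-beta, was at 50.4, 95.2 and 42.2 CPM in PANC-1, again with 0 counts in L3.6. In the other libraries TGFBI was at 151 to 165 CPM in PANC-1 K17 and 0.260 to 0.553 CPM in L3.6 knockout. RNF182, a ubiquitin ligase, was at 297, 120 and 300 CPM against 0.0589, 0 and 0 CPM. PAX2, a transcription factor of kidney development, was at 69.2, 107 and 69.8 CPM against 0.118, 0 and 0 CPM, and CRABP2, which carries retinoic acid, at 29.8, 45.8 and 28.5 CPM against 0, 0.0889 and 0 CPM. The ratios of their levels were 1765 for PAX2 (counting interval 489 to 14579) and 1495 for CRABP2 (268 to 59057). The translation termination factor GSPT2 was at 64.9, 53.6 and 66.1 CPM, SLC35F3 at 45.6, 34.2 and 37.5 CPM and the myosin light chain MYL9 at 23.8, 56.2 and 24.7 CPM, with 0 counts in L3.6. MT1E, a metallothionein, was at 30.6, 70.3 and 31.3 CPM against 0 counts, and reads may be split between it and its near-identical paralogs.

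**Figure D1:**
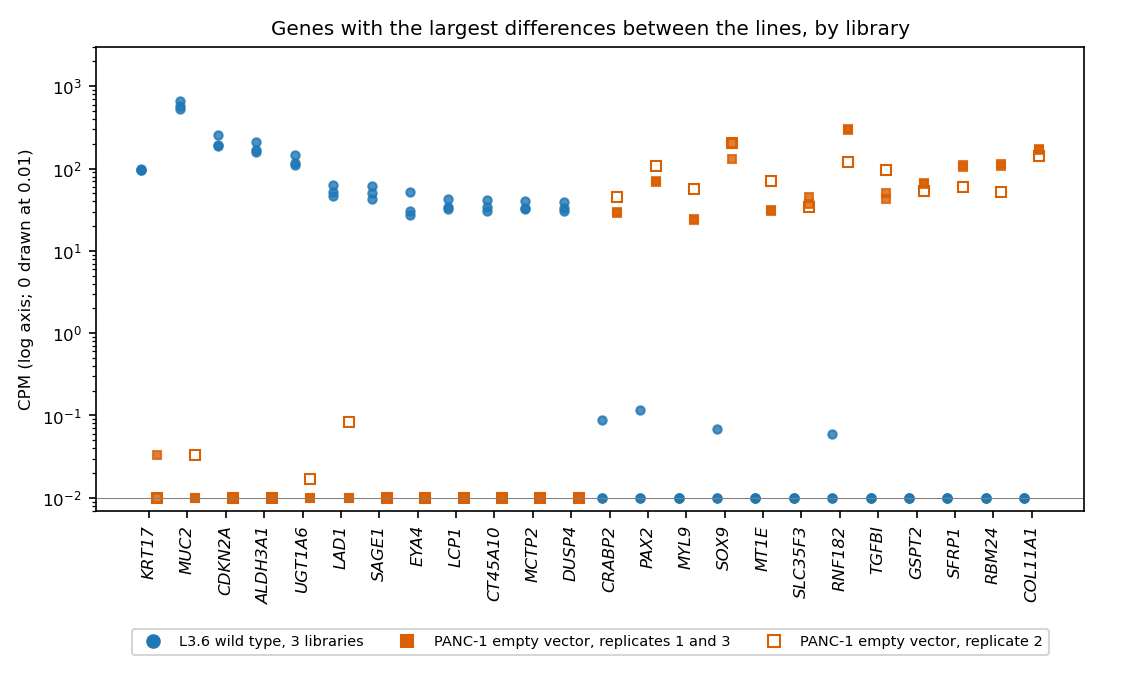
CPM in each of the 6 libraries (log axis, 0 drawn at 0.01) of KRT17 and of the described genes with the highest and the lowest fold changes among unmarked protein-coding genes with at least 20 CPM in the higher line. Circles are L3.6 wild type, filled squares PANC-1 replicates 1 and 3, open squares replicate 2, and in each gene the lines are separated by more than 100-fold.

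Genes on in 1 line and nearly without reads in the other were counted in both directions. At a mean of at least 5 CPM in 1 line (replicates 1 and 3 in PANC-1) and at most 3 counts over all libraries of the other, 58 protein-coding genes were on only in L3.6 and 50 only in PANC-1. Of these, 33 and 33 had 0 counts in the other line, and 4 and 5 are uncertain rows. The limit that 3 counts set was 0.0172 CPM in PANC-1 and 0.0699 CPM in L3.6, since L3.6 was sequenced less deeply. With PANC-1 counts thinned to the L3.6 depth 122 genes were on only in L3.6 and 48 only in PANC-1, so the balance of the 2 counts depends on depth. The L3.6 set held the growth factors EGF and TGFA, both described below. No count says that a gene is silent, only that it was not detectable at this depth in these rows.

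Epithelial regulators, the transcription and splicing factors that maintain epithelial identity, were called more often higher in L3.6 than in PANC-1. Of 12 tested members 6 were called higher in L3.6 and 1 higher in PANC-1, and their median log2 fold change was 2.46 beside -0.06 over all genes. All 7 calls recurred in the other libraries. EHF, an ETS factor of glandular epithelium, was at 258, 210 and 232 CPM in L3.6 and at 0.166, 0.167 and 0.420 CPM in PANC-1 (log2 fold change 9.64, SE 0.31, adjusted p = 1.63e-08). ESRP1, which directs epithelial splicing, was at 199, 172 and 168 CPM against 0.149, 0.167 and 0.603 CPM. ELF3, a relative of EHF, was at 128, 110 and 134 CPM against 0.430, 0.502 and 0.237 CPM. KLF5, a factor of proliferating epithelium, was at 142, 168 and 158 CPM against 2.50, 1.24 and 2.17 CPM. Levels in L3.6 exceeded every PANC-1 library in each of these genes. The 1 regulator called higher in PANC-1 is not an uncertain row and is not described here. ESRP2, the paralog of ESRP1, was at 44.7, 35.4 and 32.8 CPM against 31.0, 33.9 and 30.0 CPM and was not called (adjusted p = 0.119).

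Most called junction and surface proteins of epithelial cells were also higher in L3.6. Of 31 tested members 21 were called higher in L3.6 and 3 higher in PANC-1 (median log2 fold change 2.68), and 21 of the 24 calls recurred in the other libraries. The adhesion protein EPCAM was at 450, 371 and 343 CPM in L3.6 against 36, 41.8 and 33.6 CPM in PANC-1 (log2 fold change 3.48, SE 0.16, adjusted p = 1.22e-07), and P-cadherin, CDH3, at 62.3, 48.8 and 55.7 CPM against 2.45, 3.05 and 1.79 CPM. EPCAM was thus read well above the floor in both lines. SPINT1, an inhibitor of the membrane proteases of epithelium, was at 169, 130 and 134 CPM against 2.04, 4.12 and 2.45 CPM. MAL2, a protein of apical transport, was at 12.3, 9.86 and 7.09 CPM against 0, 0.0670 and 0 CPM. Not every junction gene differed in this way. The catenin CTNND1 was at 698, 598 and 597 CPM against 652, 372 and 665 CPM and the tight junction scaffold TJP1 at 129, 146 and 139 CPM against 152, 51.8 and 170 CPM, and neither was called (adjusted p = 0.677 and 0.131). Occludin, OCLN, ran the other way, with 0 counts in L3.6 and 51.9, 103 and 53.6 CPM in PANC-1, but its row is uncertain because of a pseudogene. A further 2 members called higher in PANC-1 are not uncertain rows and are not described here. The row of E-cadherin, CDH1, the defining adhesion protein of epithelium, held only 1.00, 1.96 and 0.886 CPM in L3.6 and 0.132, 0.285 and 0.731 CPM in PANC-1 (adjusted p = 0.0778). Whether that row holds all CDH1 reads was not tested.

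ZEB1, a repressor of epithelial genes, was lower in L3.6, at 22.1, 23.9 and 20.2 CPM against 202, 62.7 and 199 CPM in PANC-1 (log2 fold change -3.18, SE 0.13, adjusted p = 4.31e-08). ZEB2 was also called higher in PANC-1, but its row is uncertain. That call was lost in several alternative runs, among them PANC-1 replicate 2 included, upper-quartile factors, plain totals, DESeq2 and thinned PANC-1 counts. SNAI2 leaned the other way, with a mean of 0.516 CPM in L3.6 and 0 CPM in PANC-1 replicates 1 and 3, and was not called. Promoter windows of 300 bases, from 250 before to 50 after the start of the gene in the RefSeq table for GRCh38.p14, were searched for the E-box CAGGTG and its reverse complement CACCTG, which are the same motif read on either strand. The table held 14 of the 27 members of both epithelial lists that were higher in L3.6, and 5 of these (35.7%) had at least 1 E-box, against 20.6% of 27305 promoters. A pair or more of E-boxes was present in 2 of the 14 and in 3.47% of all promoters. Over all members of the lists, called or not, 14 of 29 promoters (48.3%) held the motif. Among mesenchymal genes higher in PANC-1 it was present in 2 of 6 promoters (33.3%), a share close to that of the called epithelial genes. The windows of CRB3, AP1M2 and ELF3 are shown 5′ to 3′ on the strand of the gene, with E-boxes in capitals, CRB3 and AP1M2 because they hold the most copies among the called genes and ELF3 because it is a regulator with a copy. A match describes the sequence and shows no binding.
CRB3, chr19:6464021-6464320, plus strand: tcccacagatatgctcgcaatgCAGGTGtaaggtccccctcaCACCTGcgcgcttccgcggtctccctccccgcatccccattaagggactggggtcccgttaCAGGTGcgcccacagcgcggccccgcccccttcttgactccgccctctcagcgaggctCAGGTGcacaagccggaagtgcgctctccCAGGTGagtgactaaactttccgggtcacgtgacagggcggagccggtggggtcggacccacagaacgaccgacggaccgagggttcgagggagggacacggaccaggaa
AP1M2, chr19:10587263-10587562, minus strand: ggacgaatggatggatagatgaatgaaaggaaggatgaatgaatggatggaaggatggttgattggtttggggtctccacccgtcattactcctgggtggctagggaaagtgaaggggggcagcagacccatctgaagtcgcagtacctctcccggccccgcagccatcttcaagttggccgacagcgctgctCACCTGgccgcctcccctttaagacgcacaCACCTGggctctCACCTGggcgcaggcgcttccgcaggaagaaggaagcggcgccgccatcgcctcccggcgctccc
ELF3, chr1:202010337-202010636, plus strand: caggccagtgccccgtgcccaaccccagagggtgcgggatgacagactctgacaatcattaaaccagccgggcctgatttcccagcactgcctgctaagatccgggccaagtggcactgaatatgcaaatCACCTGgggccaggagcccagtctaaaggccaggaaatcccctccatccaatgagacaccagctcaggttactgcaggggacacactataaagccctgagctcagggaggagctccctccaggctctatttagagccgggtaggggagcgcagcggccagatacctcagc

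CRB3, a protein that sets apical polarity and whose window holds 5 E-boxes, was at 5.83, 7.55 and 4.77 CPM in L3.6 and at 0.132, 0.0502 and 0.0913 CPM in PANC-1 (log2 fold change 5.69, SE 0.40). AP1M2, the epithelial subunit of a sorting adaptor, with 3 E-boxes, was at 39.2, 27.3 and 33.5 CPM against 11.7, 22 and 10.5 CPM (log2 fold change 1.59, SE 0.19). The window of EHF, which had a higher fold change than any of the 3, held none. These 4 genes were picked in part by their copies of the motif or their fold change. Whether copy number and size of the difference go together was not tested.

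Desmosomes, which anchor keratin filaments between cells, were higher in L3.6 in 7 of 9 tested members, with none called higher in PANC-1 (median log2 fold change 1.96), and 5 of the 7 recurred. Of all tested genes 22.2% were called higher in L3.6. Plakophilin 2, PKP2, was at 116, 91.6 and 99.2 CPM in L3.6 against 1.18, 0.871 and 1.57 CPM in PANC-1 (log2 fold change 6.22, SE 0.21). The desmosomal cadherin DSC3 was at 98.3, 70.5 and 79.9 CPM against 2.09, 0 and 1.83 CPM, and desmoplakin, DSP, at 59.8, 50.6 and 52.1 CPM against 2.62, 3.00 and 3.87 CPM. Plakoglobin, JUP, was at 237, 197 and 198 CPM against 50.9, 60.5 and 52.4 CPM. Hemidesmosomes, the counterpart that anchors keratins to the basement membrane, were higher in L3.6 in 8 of 10 tested members and higher in PANC-1 in 1 (median log2 fold change 2.18). Without the uncertain rows ITGA6 and DST, 7 were called higher in L3.6 and 0 higher in PANC-1. Integrin beta 4, ITGB4, was at 1303, 1095 and 1002 CPM in L3.6 against 1.36, 3.23 and 2.43 CPM in PANC-1 (log2 fold change 9.23, SE 0.32, adjusted p = 4.38e-08). LAMA3 and LAMB3 encode chains of the laminin that this integrin binds. LAMA3 was at 173, 137 and 137 CPM against 5.05, 1.89 and 5.15 CPM, and LAMB3 at 12.5, 15.7 and 13.6 CPM against 0.182, 0.151 and 0.146 CPM. The integrin ITGA6, partner of ITGB4, and dystonin, DST, are uncertain rows, since PANC-1 replicate 2 held 48.6 CPM of ITGA6 beside 482 CPM in both others and 234 CPM of DST beside 2860 and 3099 CPM.

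Keratins did not differ as 1 block. Among the simple keratins of glandular epithelium, KRT7 was at 93.4, 67.4 and 65.3 CPM in L3.6 against 0.911, 1.02 and 0.822 CPM in PANC-1 (log2 fold change 6.44, SE 0.25). KRT19 was at 1633, 1273 and 1299 CPM against 367, 733 and 370 CPM (log2 fold change 1.93, SE 0.15). KRT8 was at 1150, 911 and 972 CPM against 664, 1182 and 684 CPM, so its groups overlapped through PANC-1 replicate 2 and it was not called. In the stratified keratins, KRT13, of mucosal squamous epithelium, was at 30.0, 28.3 and 44.6 CPM against 0.0497, 0.0502 and 0.0183 CPM, and KRT5, of basal cells, at 10.1, 8.00 and 9.47 CPM against 0.0166, 0 and 0 CPM. KRT80 alone of the 6 tested stratified keratins was called higher in PANC-1, at 12.5, 22 and 12.5 CPM against 0.177, 0 and 1.84 CPM. Its call was lost when PANC-1 replicate 1 or 3 was left out and when no filter on low counts was applied. KRT15 was at 12.4, 12.4 and 12.7 CPM against 11.0, 13.4 and 9.66 CPM (adjusted p = 0.179).

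Squamous differentiation genes were read in part in L3.6, the line labelled adenosquamous. Of 28 members in the files 10 passed the filter on low counts, and 9 of these were called higher in L3.6 and 1 higher in PANC-1 (median log2 fold change 5.49). All 10 calls recurred in the other libraries. Members that passed did so mainly through their reads in 1 line, so the count, the median and the summed level are no test of the list. At most 3 counts were held by 16 of the 28 members in L3.6 and by 14 in PANC-1, among them SPRR3, S100A7 and SERPINB3, genes of the upper squamous layers. TP63 (ENSG00000073282.12, chr3:189631416-189897279), the master regulator of squamous epithelium, was at 247, 227 and 233 CPM in L3.6 and at 0.215, 0.167 and 0.164 CPM in PANC-1 (log2 fold change 10.24, SE 0.21, adjusted p = 3.85e-09). FAT2, a giant cadherin of squamous epithelium, was at 1847, 1610 and 1776 CPM against 0.414, 0.134 and 0.603 CPM. S100A2, a calcium-binding protein of basal keratinocytes, was at 794, 590 and 541 CPM against 5.69, 9.61 and 4.91 CPM. TRIM29, another basal-cell gene, was at 13.6, 11.1 and 15.9 CPM against 0.0828, 0.201 and 0.0183 CPM. The exception RHCG, an ammonium transporter of mucosal squamous epithelium, was at 0.778, 2.68 and 0.877 CPM in PANC-1 with 0 counts in L3.6. The summed level of the tested members was 2453 to 2915 CPM in L3.6 libraries and 6.89 to 13.5 CPM in PANC-1 libraries.

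Markers of the basal-like tumour type passed the filter in 13 of 22 cases, with 10 called higher in L3.6 and 2 higher in PANC-1 (median log2 fold change 5.65). Some of these too, such as KRT17 and ANXA8L1, passed only through L3.6, so count and median are a description. At most 3 counts were held by 9 of the 22 in L3.6 and by 10 in PANC-1. The basal-like members given next are all from those higher in L3.6, and the 2 higher in PANC-1 are not described here. FGFBP1, a carrier of fibroblast growth factors with 1 annotated transcript, was at 210, 161 and 170 CPM in L3.6 against 0.397, 0.804 and 0.530 CPM in PANC-1 (log2 fold change 8.60, SE 0.24). The glucose transporter SLC2A1 was at 1559, 1259 and 1363 CPM against 28.4, 40.1 and 27.1 CPM, and TNS4, a focal adhesion protein, at 58.0, 42.1 and 49.1 CPM against 0.629, 0.921 and 0.530 CPM. ANXA8L1, a near copy of another annexin gene with which it may share reads, was at 20.2, 19.6 and 12.9 CPM against 0.0331, 0 and 0 CPM. Few classical-type genes passed the filter: 5 of 21 in the files, 4 of them called higher in L3.6 and 1 higher in PANC-1. At most 3 counts were held by 6 of these 21 in L3.6 and by 5 in PANC-1. That 1 gene was AGR2, a secretory-pathway protein of glandular epithelium, at 279, 406 and 283 CPM in PANC-1 against 1.94, 1.42 and 1.5 CPM in L3.6 (log2 fold change -7.41, SE 0.17). ANXA10, also a classical-type gene, was at 79.7, 68.2 and 54.9 CPM in L3.6 against 0.132, 0.117 and 0 CPM. The remaining 3 called classical genes, TFF2, ST6GALNAC1 and MYO1A, were under 2 CPM in each library of both lines. Only the calls of AGR2 and ANXA10 recurred in the other libraries, where the remaining 3 did not pass the filter.

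**Figure D2:**
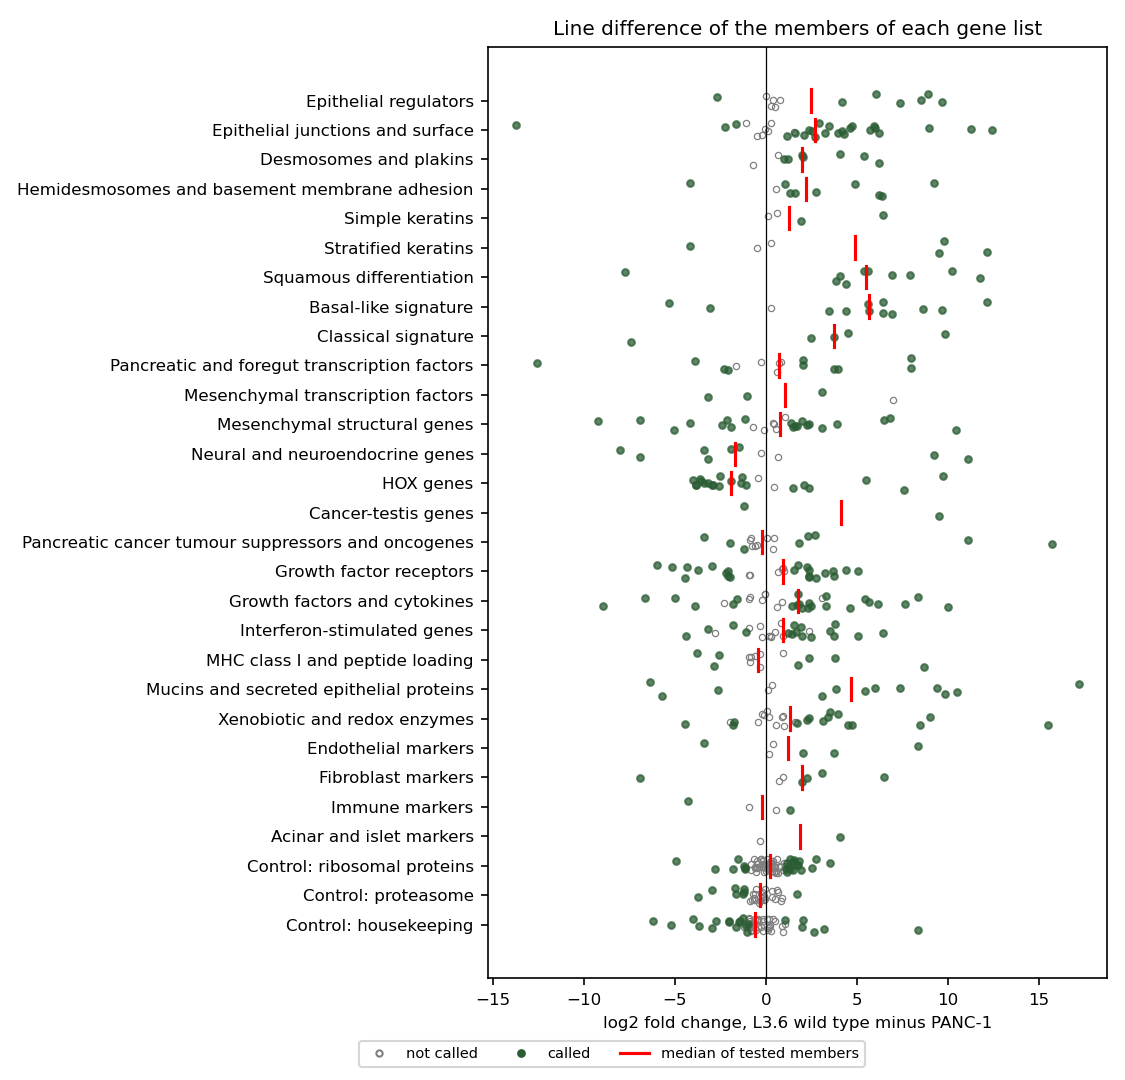
Log2 fold change (L3.6 wild type minus PANC-1 empty vector) of each tested gene, grouped by gene list, with called genes filled, others open and the list median as a red bar. Squamous and basal-like genes have medians of 5.49 and 5.65, HOX genes -1.93, and the ribosomal, proteasome and housekeeping lists 0.24, -0.32 and -0.58 (-0.32 turns to 0.11 with plain totals).

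Mucins and secreted epithelial proteins were higher in L3.6 in 9 of 14 tested members and higher in PANC-1 in 3 (median log2 fold change 4.66, or 4.56 with the members at 0 counts put at their bound). In the other libraries 5 were called in each direction, and 8 of the 12 calls recurred. Some members, such as MUC2 and SLPI, passed the filter only through L3.6, so count and median are a description. At most 3 counts were held by 4 of the 23 members in the files in L3.6 and by 8 in PANC-1. MUC5B, a gel-forming mucin of airway and gland, was at 437, 434 and 626 CPM in L3.6 against 0.530, 1.31 and 0.548 CPM in PANC-1 (log2 fold change 9.85, SE 0.29). SLPI, a secreted protease inhibitor, was at 21.7, 14.7 and 17.1 CPM against 0, 0 and 0.0183 CPM, and complement C3 at 131, 110 and 127 CPM against 2.09, 1.82 and 1.84 CPM. MUC1, the membrane mucin of most glandular epithelia, did not separate the lines, at 22.1, 19.7 and 37.1 CPM against 23.5, 44.4 and 25.6 CPM (adjusted p = 0.737). MUC2, MUC5B and C3 were lower in the L3.6 knockout libraries, at 199 to 222, 181 to 229 and 30.1 to 34.5 CPM, than in each L3.6 wild type library, which is a comparison of values without a test.

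Mesenchymal genes were split between the lines. Of 26 tested structural genes 12 were called higher in L3.6 and 8 higher in PANC-1 (median log2 fold change 0.79), beside 22.2% and 22.4% of all tested genes. Their summed level was 1512 to 1986 CPM in L3.6 and 6932 to 11804 CPM in PANC-1. Vimentin, VIM, which was called higher in PANC-1, weighs heavily in both sums. Its mean was 1149 CPM in L3.6 and 6023 CPM in PANC-1 replicates 1 and 3 (log2 fold change -2.39, SE 0.16). The sums also hold the uncertain row COL6A3. THY1, a surface protein of mesenchymal cells, was at 0, 0.0889 and 0.341 CPM in L3.6 against 17.1, 29.5 and 17.4 CPM in PANC-1, and S100A4, a calcium-binding protein linked to motility, at 0.706, 0.178 and 0.273 CPM against 13.5, 27.5 and 14.5 CPM. In the other direction, NNMT, an enzyme that methylates nicotinamide, was at 196, 162 and 169 CPM in L3.6 against 0.116, 0.184 and 0.128 CPM in PANC-1. Podoplanin, PDPN, was at 16.4, 13.7 and 14.4 CPM against 0.132, 0.151 and 0.201 CPM, and FSTL1, a secreted glycoprotein, at 15.0, 13.6 and 13.2 CPM against 0.116, 0.0335 and 0.128 CPM. Fibronectin, FN1, overlapped at 6.77, 11.3 and 10.4 CPM against 9.87, 6.78 and 10.2 CPM (adjusted p = 0.751). The collagen COL6A3 was higher in PANC-1, but its row is uncertain, with 346, 1409 and 169 CPM across the PANC-1 replicates. Of the mesenchymal transcription factors, TCF4 was higher in L3.6, at 28.1, 29.8 and 27.9 CPM against 3.56, 3.06 and 3.14 CPM, unlike ZEB1.

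Transcription factors of pancreas and foregut also divided, with 6 of 15 tested members called higher in L3.6 and 4 higher in PANC-1 (median log2 fold change 0.73), and all 10 calls recurred. Some members, such as SOX9 and GATA6, passed the filter only through 1 line, so count and median are a description. At most 3 counts were held by 7 of the 23 members in the files in L3.6 and by 7 in PANC-1. SOX9 (ENSG00000125398.6, chr17:72121020-72126420), a factor of pancreatic duct and progenitor cells, was at 205, 204 and 132 CPM in PANC-1 and at 0, 0 and 0.0681 CPM in L3.6. Its 31813 counts against 1 give a ratio of levels of 7807 (counting interval 1401 to 308358). Within the L3.6 knockout libraries SOX9 ranged from 0 to 12.1 CPM, so the row was not uniformly empty in that line. FOXA2, a foregut pioneer factor, was at 81.2, 149 and 78.6 CPM in PANC-1 against 6.06, 4.89 and 5.11 CPM in L3.6, while its paralog FOXA1 was at 0.0166, 0 and 0 CPM in PANC-1 against 3.77, 2.67 and 2.79 CPM in L3.6. GATA6, a factor of the classical tumour type, had 0 counts in PANC-1 and was at 0.530, 1.16 and 1.29 CPM in L3.6. CDX2, the intestinal factor, was at 7.18, 5.51 and 5.11 CPM in L3.6 against 0.513, 0.619 and 0.365 CPM in PANC-1. ONECUT3, with 1 annotated transcript, overlapped at 94.4, 80.0 and 80.5 CPM against 47.4, 93.9 and 49.6 CPM.

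HOX genes, which encode position along the body axis and lie in 4 clusters, differed in both directions. Of 23 tested members 6 were called higher in L3.6 and 15 higher in PANC-1 (median log2 fold change -1.93), and 20 of the 21 calls recurred. The same shares of all tested genes were 22.2% and 22.4%. In the HOXA cluster 4 of 8 tested genes, the posterior ones HOXA9, HOXA10, HOXA11 and HOXA13, were called higher in L3.6 and 2 others higher in PANC-1. The HOXA9 call was lost without PANC-1 replicate 3 (adjusted p = 0.106). HOXA13 was at 19.96, 17.1 and 17.0 CPM in L3.6 against 0.0166, 0.0335 and 0.0183 CPM in PANC-1 (log2 fold change 9.72, SE 0.35). These PANC-1 values lie near the floor, so the fitted value depends on the prior count that edgeR adds. HOXA10 was at 24.9, 24.3 and 23.2 CPM against 0.166, 0.268 and 0.0731 CPM. HOXA11 was at 21.5, 13.1 and 15.9 CPM against 0.381, 0.485 and 0.347 CPM. In the HOXB cluster 6 of 7 tested genes and in the HOXC cluster 6 of 6 were called higher in PANC-1. HOXB8 was at 43.7, 70.0 and 39.6 CPM in PANC-1 against 2.83, 2.31 and 2.45 CPM in L3.6 (log2 fold change -4.03, SE 0.18), and HOXB5, a gene with 1 annotated transcript, at 90.1, 141 and 89.1 CPM against 9.66, 7.02 and 8.93 CPM. HOXC6 was at 34, 36.6 and 36.4 CPM against 2.18, 2.84 and 2.32 CPM and HOXC11 at 37.5, 55.8 and 38 CPM against 3.00, 2.22 and 2.45 CPM. The HOXD cluster had 1 call in each direction among 2 tested genes. The exception in the HOXB cluster was its posterior gene HOXB13, at 18.1, 15.8 and 14.9 CPM in L3.6 against 6.34, 8.64 and 5.19 CPM in PANC-1. HOX genes overlap each other and antisense genes, and whether counting used strand is not stated.

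**Figure D3:**
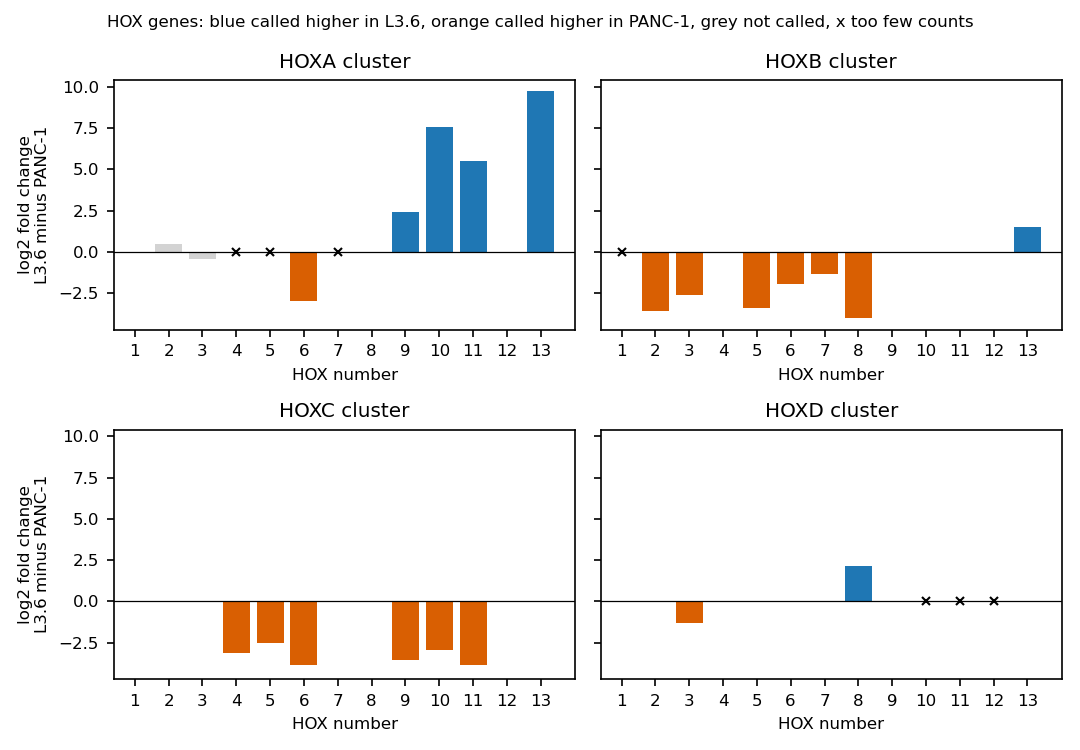
Log2 fold change (L3.6 wild type minus PANC-1 empty vector) of the HOX genes reported here by their number in each of the 4 clusters, with called genes in blue (higher in L3.6) or orange (higher in PANC-1), uncalled genes in grey and genes with too few counts as crosses. HOXA9 to HOXA13 point up (the HOXA9 call was lost without PANC-1 replicate 3), and the tested HOXB and HOXC genes other than HOXB13 point down.

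Neural and neuroendocrine genes were higher in PANC-1 in 6 of 10 tested members and higher in L3.6 in 2 (median log2 fold change -1.70), and 7 of the 8 calls recurred. Some members, such as NEFL and GAP43, passed the filter only through L3.6, so count and median are a description. At most 3 counts were held by 4 of the 18 members in the files in L3.6 and by 7 in PANC-1. Among all tested genes 22.4% were called higher in PANC-1 and 22.2% higher in L3.6. The microtubule protein MAP2 was at 282, 120 and 286 CPM in PANC-1 against 1.35, 1.07 and 0.886 CPM in L3.6 (log2 fold change -7.99, SE 0.18). The neural adhesion protein L1CAM was at 104, 127 and 107 CPM against 1.35, 0.800 and 0.341 CPM, and synaptophysin, SYP, at 12.2, 23.9 and 13.2 CPM against 1.18, 1.51 and 0.954 CPM. Neurofilament light chain, NEFL, ran the other way, at 9.77, 9.06 and 6.81 CPM in L3.6 with 0 counts in PANC-1, as did GAP43, a growth cone protein, at 2.30, 2.40 and 2.45 CPM against 0, 0.0335 and 0 CPM.

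Genes recurrently altered in pancreatic cancer were called in 8 of 16 tested members, 5 higher in L3.6 and 3 higher in PANC-1, a share near the 44.6% called over all genes. All 8 calls recurred. Their median log2 fold change was -0.21 with TMM and 0.23 with plain totals, so it has no stable direction. CDKN2A (ENSG00000147889.17, chr9:21967753-21995301), a cell cycle inhibitor and tumour suppressor often lost in pancreatic cancer, was at 253, 193 and 190 CPM in L3.6 and had 0 counts in PANC-1, which is at least 12581-fold higher in L3.6. Its neighbour CDKN2B (chr9:22002903-22009363), a related inhibitor, was at 9.01, 8.53 and 8.52 CPM in L3.6 and also had 0 counts in PANC-1, at least 508-fold higher. MTAP, an enzyme of methionine salvage that lies beside them (chr9:21802543-21937651), was read in both lines, at 185, 178 and 144 CPM in L3.6 and 49.8, 59.9 and 47.9 CPM in PANC-1 (log2 fold change 1.79, SE 0.15). IFNE, an interferon gene on the far side of MTAP, was at 6.95, 6.66 and 5.45 CPM against 10.1, 6.45 and 10.5 CPM and was not called. MYC was at 235, 175 and 167 CPM against 29.9, 17.7 and 30.2 CPM. RNF43, a ubiquitin ligase that restrains Wnt signalling, was at 26.2, 24.2 and 23.7 CPM against 5.56, 5.16 and 4.24 CPM, and SMAD2, a mediator of TGF-beta signals, at 89.6, 68.1 and 65.6 CPM against 288, 129 and 298 CPM. The counts carry no copy number or sequence, so what lies behind these levels was not tested.

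Growth factors, cytokines and their receptors differed in both directions. Of 32 tested growth factors and cytokines 17 were called higher in L3.6 and 6 higher in PANC-1 (median log2 fold change 1.73), but in the other libraries 10 were called higher in L3.6 and 8 higher in PANC-1, and 14 of the 23 calls recurred. EGF, a ligand of the EGF receptor, was at 26.8, 20.3 and 17.6 CPM in L3.6 against 0, 0 and 0.0365 CPM in PANC-1, and TGFA, another ligand of that receptor, at 9.89, 9.51 and 9.61 CPM against 0, 0 and 0.0548 CPM. The ratios of levels were 1919 for EGF (counting interval 530 to 15872) and 565 for TGFA (192 to 2751). BMP7 was at 37.5, 27.2 and 31.7 CPM against 0.199, 0.285 and 0.110 CPM. The chemokine CCL2, which draws monocytes, was at 73.8, 81.2 and 69.8 CPM in PANC-1 against 0, 0.178 and 0.273 CPM in L3.6, and CSF1, the macrophage growth factor, at 51.3, 44.4 and 51.5 CPM against 0.471, 0.622 and 0.477 CPM. Among 28 tested growth factor receptors 12 were called higher in L3.6 and 10 higher in PANC-1. For both lists the shares over all tested genes were 22.2% and 22.4%. NTRK2, a neurotrophin receptor, was at 38, 31.0 and 36.7 CPM in L3.6 against 1.03, 0.419 and 1.06 CPM in PANC-1, and the insulin receptor INSR at 23.8, 22.8 and 25.6 CPM against 0.977, 2.01 and 1.30 CPM. MERTK, a receptor for signals of dying cells, was at 96.6, 46.3 and 88.5 CPM in PANC-1 against 2.94, 2.58 and 2.18 CPM in L3.6, and the Wnt receptor ROR1 at 87.0, 54.7 and 82.5 CPM against 0.824, 0.267 and 2.86 CPM.

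Xenobiotic and redox enzymes were called higher in L3.6 in 12 of 26 tested members and higher in PANC-1 in 3 (median log2 fold change 1.30), and 13 of the 15 calls recurred. Over all tested genes 22.2% were called higher in L3.6 and 22.4% higher in PANC-1. The aldo-keto reductases AKR1C1 and AKR1C2 were at 77.2, 51.2 and 40.9 CPM and at 189, 136 and 81.6 CPM in L3.6, against 0.0662, 0.117 and 0.146 CPM and 0.414, 0.234 and 0.347 CPM in PANC-1. They are near-identical paralogs, so the split of reads between them is uncertain. The glutathione peroxidase GPX2 was at 21.0, 15.6 and 14.7 CPM against 0.464, 0.988 and 0.840 CPM (log2 fold change 4.72, SE 0.32). GSTM3, a glutathione transferase, was at 79.0, 113 and 77.3 CPM in PANC-1 against 2.59, 4.35 and 4.09 CPM in L3.6. NQO1, a target of the oxidative stress factor NRF2, was at 210, 167 and 145 CPM against 121, 161 and 117 CPM, and its groups overlapped.

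Interferon-stimulated genes, which respond to viral RNA and interferon, were called higher in L3.6 in 12 of 27 tested members and higher in PANC-1 in 4 (median log2 fold change 0.92). The shares over all tested genes were 22.2% and 22.4%. In the other libraries 8 were called higher in L3.6 and 9 higher in PANC-1, and 10 of the 16 calls recurred, so the lean toward L3.6 was not seen there. IFI44 was at 10.4, 7.73 and 7.70 CPM in L3.6 against 0.0662, 0.0670 and 0.128 CPM in PANC-1 (log2 fold change 6.44, SE 0.39). The RNA sensors diverged, with IFIH1 at 29.2, 15.7 and 20.4 CPM in L3.6 against 2.20, 0.301 and 1.61 CPM in PANC-1 and DDX58 at 1.71, 0 and 0.613 CPM against 16.0, 10.1 and 20.2 CPM. MX2, an antiviral GTPase, was at 68.9, 42.5 and 67.0 CPM in PANC-1 against 6.83, 7.2 and 8.31 CPM in L3.6. Of 14 tested MHC class I and peptide-loading genes, 8 are uncertain rows and are not read further. The unmarked ERAP2, which trims peptides for MHC class I, was at 77.9, 58.1 and 75.9 CPM in PANC-1 against 13.4, 13.0 and 12.4 CPM in L3.6. NLRC5, the activator of MHC class I transcription, was at 10.1, 8.18 and 10.4 CPM in L3.6 against 1.75, 1.72 and 1.92 CPM in PANC-1.

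Cancer-testis genes, normally read in the germ line, passed the filter in 2 of 17 cases. CT45A1 was at 3.06, 2.75 and 2.73 CPM in L3.6 against 0, 0.0335 and 0 CPM in PANC-1. PRAME was read in both lines, at 27.6, 21.0 and 23.5 CPM in L3.6 and 56.2, 74.0 and 55.5 CPM in PANC-1 (log2 fold change -1.21, SE 0.15), and its call was lost with plain totals and with thinned PANC-1 counts. On chromosome X the neighbours CT45A5, CT45A10 and SAGE1 (chrX:135713453-135913061 for the run) were on in L3.6 with 0 counts in PANC-1. SAGE1 was at 61.1, 50.03 and 43.2 CPM, CT45A10 at 42, 34.3 and 30.3 CPM and CT45A5 at 6.89, 7.11 and 6.34 CPM. CT45 genes are near-identical copies, so reads may be split among them. The second run of this kind was UGT1A6, UGT1A5, UGT1A4 and UGT1A3 on chromosome 2 (chr2:233691607-233773300), which encode glucuronosyltransferases of drug metabolism and share their last exons. UGT1A6 was at 146, 116 and 111 CPM in L3.6 against 0, 0.0167 and 0 CPM in PANC-1, and the other three were at 2.88 to 17.9 CPM in L3.6 libraries with 0 counts in PANC-1. UGT1A5 is an uncertain row, at 2.88 CPM in L3.6 replicate 1 beside 13.5 CPM in both others. Shared exons mean that these 4 rows are not independent.

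Chromosomes differed in their median. Over 13623 tested protein-coding genes the median log2 fold change was -0.10, and it was highest on chromosome 22 at 0.82 and chromosome 17 at 0.51. It was lowest on chromosome 18 at -0.70, chromosome 6 at -0.67 and chromosome 10 at -0.63. On chromosome 22, 133 of 320 genes were called higher in L3.6 and 32 higher in PANC-1, while on chromosome 18 these numbers were 27 and 65 of 199. The medians in the other libraries were 0.78 for chromosome 22, 0.40 for chromosome 17, -0.68 for chromosome 18, -0.53 for chromosome 6 and -0.64 for chromosome 10. Gains or losses of these chromosomes were not tested.

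**Figure D4:**
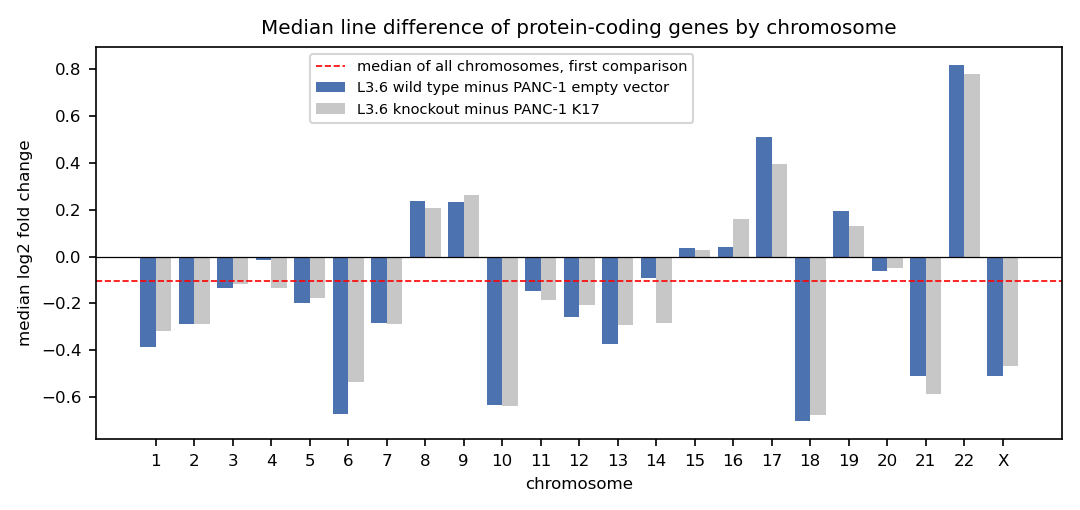
Median log2 fold change (L3.6 minus PANC-1) of tested protein-coding genes on each chromosome, in L3.6 wild type minus PANC-1 empty vector (blue) and L3.6 knockout minus PANC-1 K17 (grey), with the median of all chromosomes as a dashed line. Chromosomes 22 and 17 stand above the line and chromosomes 18, 6, 10, 21 and X below it in both comparisons.

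Some markers of other cell types were read in these lines, while others were at or near 0 counts. The summed level of tested endothelial markers was 19.3 to 23.1 CPM in L3.6 and 4.70 to 10.2 CPM in PANC-1, with 3 of 6 called higher in L3.6 and 1 higher in PANC-1. Tested fibroblast markers summed to 154 to 199 CPM in L3.6 and 48.5 to 80.3 CPM in PANC-1, mostly through the collagen COL1A1 at 146, 113 and 103 CPM against 25.6, 45.9 and 25.8 CPM, and 4 of 7 were called higher in L3.6 and 1 higher in PANC-1. COL3A1, another collagen of that list, was at 32.1, 24.3 and 31.2 CPM against 3.71, 2.93 and 3.32 CPM. FAP and LUM, also on the list of 11 in the files, had at most 3 counts in each line. Immune markers summed to 4.36 to 4.95 CPM in L3.6 and 41.9 to 58.9 CPM in PANC-1. Nearly all of that was the lysosomal protein CD68, at 40.5, 55.8 and 40.8 CPM in PANC-1 against 3.12, 1.78 and 1.29 CPM in L3.6. CD2, CD3D and CD3E, which define T cells, had 0 counts in both lines. Acinar and islet markers had 2 of 14 in the files tested, and INS, GCG, PPY and CELA3A had 0 counts in both lines. These values were read from 1 list per cell type, and the part of other cells in the results above was not tested.

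Genes with 1 annotated transcript cannot have their reads split between annotated isoforms. Of 341 tested list members outside the control lists 15 were of this kind, and 12 were called, 9 higher in L3.6 and 3 higher in PANC-1. Besides those given above, MUC5AC, a gastric mucin, had a mean of 59.6 CPM in L3.6 against 1.25 CPM in PANC-1 (log2 fold change 5.46, SE 0.21). CLDN3, a tight junction claudin, had a mean of 5.32 CPM against 0.417 CPM (log2 fold change 4.6, SE 0.39), and USP18, an interferon-induced protease, 16.5 CPM against 4.43 CPM (log2 fold change 1.99, SE 0.22). These 3 were named after their values were seen. Over all 1621 tested genes of this kind 834 were called. Refitted alone they gave 526 genes higher in L3.6 and 313 higher in PANC-1.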

How the data were processed

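Per the labels' protocols, TRIzol was used for RNA and a TruSeq RNA kit for the libraries. The authors deposited raw counts, whole numbers for each gene and library, and 12 human libraries were used. Kallisto 0.46.2, STAR 2.7.3a and bcl2fastq 1.8.4 are named in the submitters' processing notes, as are builds GRCm38 and GRCh38. Not given in the sources used here are the counting tool, its annotation and strand setting, and how multi-mapped reads were handled. Of 34505 row identifiers 34474 are in GENCODE 29, which gave names, GRCh38 coordinates and transcript numbers.

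The fit was edgeR 4.0.16 in R 4.3.3 (filterByExpr, TMM, robust glmQLFit, glmQLFTest, Benjamini-Hochberg adjustment over all genes kept) on 3 L3.6 and 2 PANC-1 libraries, and PANC-1 replicate 2 entered only the overlap rule and TMM. SE is the log2 fold change divided by the root of F. Genes with at most 3 counts in 1 line are given as ratios of levels with exact (Clopper-Pearson) counting intervals. At 0 counts they are given as bounds from a floor of 3 counts over the group. A fitted value would depend there on the small prior count that edgeR adds by default. The second comparison used 6 other libraries, and the difference of both comparisons was taken as an interaction in a fit of 11 libraries. Lists are described by counts and medians, without a set test.

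The comparison, its gene lists and rules were chosen with earlier results of these data known. Named genes are KRT17, the 12 highest and 12 lowest fold changes among unmarked called protein-coding genes with a mean of at least 20 CPM in the higher line, members of each list (up to 6 called with the largest change, up to 2 uncalled with the highest CPM), examples of uncertain rows and genes of runs off in 1 line; some of these genes are not reported here. EPCAM, CDH3, CDH1, VIM, CRB3, AP1M2, HOXA9, HOXB5, HOXB13, MUC5AC, CLDN3, USP18, SPRR3, S100A7, SERPINB3, MTAP, IFNE and the markers of other cell types listed at or near 0 counts were named after their values were seen. The fit was tested on simulated data. Alternatives were other scalings (RLE, upper quartile, plain totals, without mitochondrial genes and AC010970.1), filters, DESeq2 1.42.0, limma-voom (limma 3.58.1), 1 fit of the 4 human groups, replicate 2 included, a replicate block, thinning, fold thresholds, subsets of rows and each library left out.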

Additional observations from a re-analysis of the deposited data

Results flagged for a closer look

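The difference between L3.6 and PANC-1 went in opposite directions in the 2 sets of libraries (wild type and empty vector against knockout and K17) for 8 genes, of which 1 is a pseudogene row with a clone name and is not described. They were found by their opposite calls, so the difference of the 2 log2 fold changes (first minus second, an interaction term) restates that choice and is given as a description. For KRT17, the gene altered in the second set, it was 15.88, a fitted value that depends on the prior count because PANC-1 empty vector held 2 counts. For SRPX2, a secreted protein, it was 3.5932. ENTPD3, an enzyme that degrades extracellular nucleotides, gave 4.9502 and ANGPT2, a ligand of endothelial receptors, 2.5235. PLEKHA7, a protein of adherens junctions, gave 2.2982. MMP2, a matrix protease, gave -3.1168 and MAFA, a beta-cell factor, -2.5485. The first calls of ANGPT2 and ENTPD3 were lost without PANC-1 replicate 1 or 3, and that of PLEKHA7 without L3.6 replicate 1. Those of MMP2 and MAFA were lost with plain totals, and that of MMP2 also with upper-quartile factors and with thinned PANC-1 counts. Which of the groups carries each difference was not tested.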

How the results depend on the processing

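No called gene among 535 recomputed reversed its direction under any alternative run, and 103 lost their call under at least 1. With plain library totals 2274 genes were higher in PANC-1. At least 4-fold gave 1906 higher in L3.6 and 1663 higher in PANC-1. Genes with 1 annotated transcript, fewer genes tested, gave 526 and 313. Requiring 0 counts gave 33 and 33 genes on in 1 line only, and a mean of at least 1 CPM gave 143 and 126. Thinning PANC-1 (an alternative added after the data were seen) gave 122 on only in L3.6 and 48 only in PANC-1. Leaving out 1 library at a time gave 2800 to 3729 genes higher in L3.6 and 3410 to 3796 higher in PANC-1. Without PANC-1 replicate 1 or 3 that line has 1 library in the fit, assumed to vary like the L3.6 libraries. With the replicate number as a block and replicate 2 included, 3156 and 3397 genes were called. The labels do not say that a number pairs libraries, and the deviations of same-numbered libraries correlated at 0.02, -0.01 and 0.01. Other scalings, filters and tools kept both counts within 1.5 times, DESeq2 with 3387 and 3128 and limma-voom with 3413 and 3469. Reads split between rows, the depth gap between the lines and the single culture condition limit all values.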
